A study of Mus musculus with 4 samples.

Results

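Mitochondria constantly join and divide, and 10 genes of this cycle were followed in lung group 2 innate lymphoid cells (ILC2s) cultured with the Orai channel blocker compound 5D or with vehicle. The genes are Mfn1, Mfn2, Opa1, Dnm1l, Fis1, Mff, Mief1, Mief2, Oma1 and Yme1l1. They were chosen by name for their known roles, at a time when earlier results of these data were known. All 10 were found by their symbols among the 22554 genes of the table.

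ILC2s are lymphocytes without antigen receptors that make type 2 cytokines, and the Orai channels that 5D blocks let calcium in once a cell's internal stores are empty. The cells were sorted from lungs of 6-week-old BALB/c mice and kept overnight in IL-33, IL-2 and IL-7, and 2 libraries were made with vehicle and 2 with 5D. All 4 libraries therefore come from IL-33-activated cells, and cells cultured without IL-33 were not analysed here. The sample labels give no dose of 5D, differ from the study's methods in culture time and in the amount of input RNA, and do not say whether the libraries of a group came from separate mice or cultures, so the p-values measure only the spread between these libraries.

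Outer membranes are fused by the mitofusins MFN1 and MFN2 and inner membranes by OPA1, all of them large GTPases. Division is driven by the dynamin-related GTPase DRP1, the product of Dnm1l, which is drawn from the cytosol to the outer membrane by the adaptors MFF, FIS1, MIEF1 (MiD51) and MIEF2 (MiD49). OPA1 is cut by the inner membrane proteases OMA1, which acts under stress, and YME1L1, which acts constitutively, and the balance of long and short OPA1 sets how readily inner membranes fuse. In lymphocytes, fused networks are known from resting and memory cells and divided mitochondria from activated effector cells, and DRP1 is activated by calcineurin when calcium rises.

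The deposited values are estimated counts of reads per gene before normalization. The libraries held 20096555 to 28697265 counts, and each of the 10 genes had between 357 and 4140 counts in a library. Mitochondrially encoded genes took 0.98% and 1.06% of the counts with vehicle and 0.81% in each 5D library, and leaving these genes out changed no call on the 10 genes. Summed markers of ILC2s, such as Gata3, Il1rl1 and Il5, lay between 12400 and 12500 normalized CPM (counts scaled by the library total and its upper quartile) with vehicle and between 11600 and 12100 with 5D. Il5, at a mean of 4600, made up the most of this sum. At an unadjusted p-value under 0.05, 4 of the 13 ILC2 markers were lower and 1 was higher with 5D, where 7.34% of all genes tested passed in either direction, and 0 passed the adjusted threshold with edgeR. The part of these markers in the results below was not tested. Summed markers of other cells were lower by orders of magnitude in every library. They reached at most 49.9 for epithelial, endothelial and stromal cells, 27.7 for T cells, most of it Cd3g at a mean of 22.7, and at most 6.75 for each list of B cells, NK cells, myeloid cells and granulocytes. The sums rest on 1 of 4 listed markers for B cells, 3 of 4 for NK cells and 4 of 7 for granulocytes. For T cells and for the epithelial list 6 of 7 were summed. The eosinophil genes Epx, Prg2 and Siglecf were not among those summed. Cd4, Mcpt4, Scgb1a1 and Pdgfra had 0 counts in all 4 libraries.

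Transcripts of the fusion and fission genes were present at similar levels with and without 5D, and none of the 10 genes passed the test. Each difference was tested with edgeR's quasi-likelihood test over 17650 genes, with Benjamini-Hochberg adjustment over all of them. At an adjusted p-value under 0.05, 0 of the 10 genes were called, where 0.0963% of all genes tested were called, 0.0283% as higher and 0.068% as lower. The count was also 0 with limma-voom and with DESeq2's Wald test, which gave no adjusted p-value for Mief2 and Oma1. At an unadjusted p-value under 0.05, 1 gene was lower and 0 were higher, against 3.84% and 3.5% of all genes tested, or 7.34% in either direction. The gene was Mief2. With a difference of at least 2-fold required as well, 0 of the 10 genes were left, against 2.02% of all genes tested. By sign alone 7 genes were higher and 3 lower. The median of the 10 log2 fold changes was 0.069, where that of all genes was -0.002. The 5D libraries did not overlap with the vehicle libraries for 5 of the 10 genes, 3 of them higher and 2 lower with 5D. Of all genes tested, 37.6% were separated in this way, 18.7% as higher and 18.8% as lower.

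**Figure D1:**
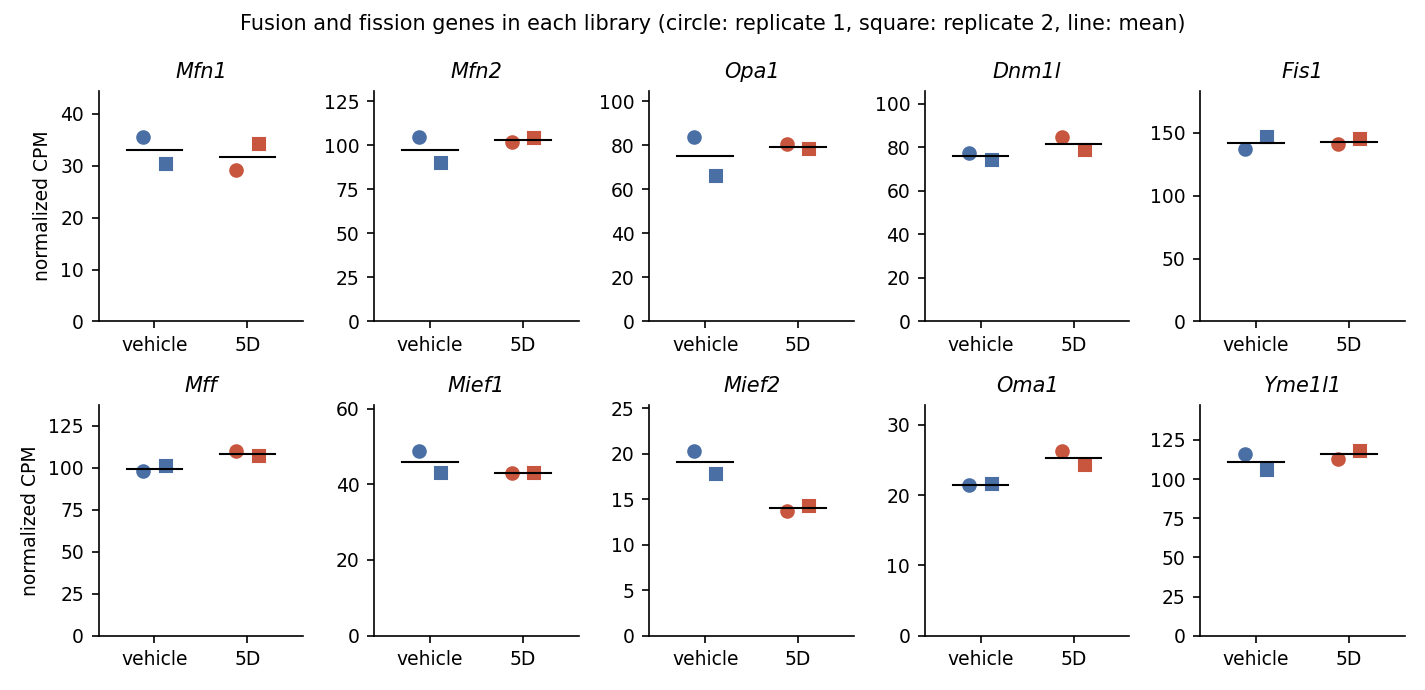
Normalized CPM (vertical axes, from 0) of the 10 genes in the 2 vehicle libraries (blue) and the 2 5D libraries (red), with a black line at each group mean. The groups overlap for Mfn1, Mfn2, Opa1, Fis1 and Yme1l1, and the widest gap relative to the level is that of Mief2, with 17.8 and 20.3 with vehicle above 13.7 and 14.2 with 5D.

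Among the fusion GTPases the vehicle libraries differed from each other by more than the groups did. Mfn1 (ENSMUSG00000027668.13, chromosome 3 of mm10 from 32529465 to 32579239) had 35.6 and 30.4 normalized CPM with vehicle and 29.1 and 34.2 with 5D. The groups overlapped, and each spread over a wider range than the distance between their means. Its log2 fold change was -0.06 (95% interval -0.33 to 0.21, adjusted p = 0.957 from edgeR), and the sign turned when vehicle replicate 1 or 5D replicate 1 was left out, to 0.05 in both cases. Transcripts of 12 other genes share a stretch of at least 150 nt with Mfn1 at 95% identity or more, so some of its reads could be split.

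Mfn2 (ENSMUSG00000029020.13, chromosome 4 from 147873599 to 147904704) was the more abundant mitofusin. It had 105 and 89.9 normalized CPM with vehicle and 102 and 104 with 5D. The 5D libraries lay between the vehicle libraries, and the log2 fold change was 0.08 (95% interval -0.09 to 0.25, adjusted p = 0.891 from edgeR). It was 0.19 without vehicle replicate 1 and -0.03 without vehicle replicate 2.

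Opa1 (ENSMUSG00000038084.16, chromosome 16 from 29579334 to 29654884), the fusion GTPase of the inner membrane, had 84.0 and 66.3 normalized CPM with vehicle and 80.8 and 78.2 with 5D. Vehicle replicate 2 stood lowest and vehicle replicate 1 highest, so that the 5D libraries again lay between them. The log2 fold change was 0.08 (95% interval -0.14 to 0.30, adjusted p = 0.921 from edgeR). Without vehicle replicate 1 it was 0.26 and without vehicle replicate 2 it was -0.08, so the direction rests on which vehicle library is kept. The SD of the 2 vehicle libraries was 16.7% of their mean for Opa1, 11.1% for Mfn1 and 10.9% for Mfn2. The median over 6145 tested genes with levels in the range of the 10 genes was 4.69%, and 4.18% of these had a value at least as high as Opa1. The SD with vehicle was 9.2% of the mean for Mief2, 8.77% for Mief1, 6.02% for Yme1l1 and 5.26% for Fis1, also above that median. For the fission GTPase Dnm1l it was 3.39%, for Mff 1.67% and for Oma1 0.927%. Between the 5D libraries it was 11.4% for Mfn1, 2.35% for Opa1 and 0.964% for Mfn2.

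Transcripts for the fission machinery were nearly level between the groups apart from those of Mief2. Dnm1l (ENSMUSG00000022789.15, chromosome 16 from 16312230 to 16358959), the gene of DRP1, had 77.6 and 74.0 normalized CPM with vehicle and 84.9 and 78.6 with 5D. Both 5D libraries lay above both vehicle libraries, but by little, and the log2 fold change of 0.11 had a 95% interval from -0.06 to 0.27 (adjusted p = 0.824 from edgeR). Its exons share 243 nt with the antisense gene Gm49521, which had at most 50.5 counts in a library.

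Fis1 (ENSMUSG00000019054.13, chromosome 5 from 136953275 to 136966234), whose product is anchored in the outer membrane, had the log2 fold change closest to 0 of the 10 genes. It had 137 and 147 normalized CPM with vehicle and 141 and 145 with 5D. The 5D values lay inside the vehicle range, and the log2 fold change was 0.01 (95% interval -0.13 to 0.14, adjusted p = 0.996 from edgeR). A sign cannot be given to it, since it was -0.0036 when the upper quartile was recomputed on the filtered genes and between -0.05 and 0.06 when a library was left out.

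Mff (ENSMUSG00000026150.14, chromosome 1 from 82724890 to 82752394) encodes the adaptor that recruits DRP1 to mitochondria and also to peroxisomes. It had 98.3 and 101 normalized CPM with vehicle and 110 and 107 with 5D. Both 5D libraries were higher, with little spread in either group, and the log2 fold change was 0.12 (95% interval -0.02 to 0.26, unadjusted p = 0.0783 and adjusted p = 0.729 from edgeR). It stayed between 0.10 and 0.14 over the 13 alternatives. The annotation lists 16 transcripts of Mff, 8 of Opa1 and 7 of Dnm1l, and counts per gene do not separate their splice forms. Exons of Mff share 195 nt with C430014B12Rik, which had at most 15.5 counts in a library.

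Of the paired adaptors MIEF1 and MIEF2, which bind DRP1 independently of MFF and FIS1, Mief2 was lower with 5D in both libraries. Mief2 (ENSMUSG00000018599.5, chromosome 11 from 60728398 to 60732951) had 472 and 357 counts with vehicle and 373 and 407 with 5D, in the deeper libraries. These are 20.3 and 17.8 normalized CPM with vehicle and 13.7 and 14.2 with 5D. Neither 5D library reached the level of a vehicle library, and the gap between the groups was wider than the distance between the vehicle libraries. The mean was 19.1 ± 1.76 (SD, n = 2) in vehicle libraries and 14.0 ± 0.347 (SD, n = 2) in 5D libraries, and the fitted level with 5D was 0.733 of the vehicle level (95% interval 0.593 to 0.905). On the log2 scale the difference was -0.45 with a standard error of 0.14 (unadjusted p = 0.00775 and adjusted p = 0.530 from edgeR), and 254 of the genes tested had a smaller p-value. It therefore did not pass over all genes. Over the 13 alternatives it stayed negative, between -0.54 and -0.35, with adjusted p-values from 0.204 to 0.819 in the 12 that gave one. The lowest and the highest value came without vehicle replicate 2 and without vehicle replicate 1, and in the latter the unadjusted p was 0.0602. Counting error alone is 4.6% to 5.29% of a Mief2 count, and the vehicle libraries differed with an SD of 9.2% of their mean. No other gene overlaps its exons, and none has a near-identical stretch.

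Mief1 (ENSMUSG00000022412.14, chromosome 15 from 80234018 to 80253371), its paralog, had 48.8 and 43.1 normalized CPM with vehicle and 43.1 and 43.1 with 5D. Vehicle replicate 2 and both 5D libraries were equal at this precision, and only vehicle replicate 1 stood above them, so the groups were separated by less than the precision printed. The log2 fold change was -0.09 (95% interval -0.31 to 0.12, adjusted p = 0.896 from edgeR), and it was -0.0037 without vehicle replicate 1. The gene shares 213 nt of exon with AC140267.1, a protein-coding gene that was not analysed here.

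The proteases that cut OPA1 had their higher values with 5D for Oma1 and no separation for Yme1l1. Oma1 (ENSMUSG00000035069.3, chromosome 4 from 103313812 to 103371868) had 496 and 433 counts with vehicle and 715 and 696 with 5D. These are 21.4 and 21.6 normalized CPM with vehicle and 26.3 and 24.3 with 5D, so both 5D libraries were higher and the vehicle libraries were nearly equal. The log2 fold change was 0.24 (standard error 0.12, 95% interval -0.02 to 0.49, unadjusted p = 0.0668 and adjusted p = 0.715 from edgeR), which is 1.18 times the vehicle level. It was the highest of the 10, and it lay between 0.18 and 0.29 over the alternatives.

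Yme1l1 (ENSMUSG00000026775.9, chromosome 2 from 23156369 to 23199260) had 116 and 106 normalized CPM with vehicle and 113 and 118 with 5D. The groups overlapped, and the log2 fold change was 0.06 (95% interval -0.09 to 0.21, adjusted p = 0.910 from edgeR). Without vehicle replicate 2 it was -0.0039. The pseudogene Gm14897 carries a stretch near-identical to Yme1l1 and was not analysed here.

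The intervals give the size of change that these libraries could still hold. For 9 of the 10 genes the 95% interval holds 0 and lies within 1.5-fold in either direction. The exception is Mief2, whose interval reaches down to 0.593 of the vehicle level and does not hold 0. The highest upper bound was 1.41-fold, for Oma1, and the lowest bound apart from Mief2 was 0.796, for Mfn1. Standard errors on the log2 scale ran from 0.06 to 0.14. The intervals are not adjusted for the number of genes, and they draw on a spread estimated by edgeR across genes. For 1 gene alone, 2 libraries against 2 allow no two-sided exact permutation p under 0.333. In bulk RNA, less RNA per cell and fewer cells that express a gene cannot be told apart.

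**Figure D2:**
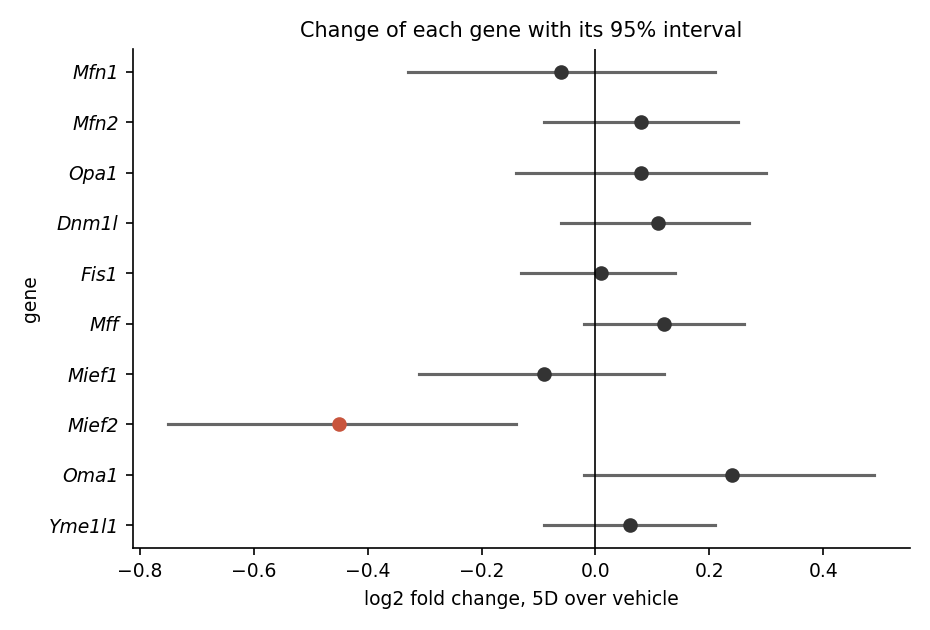
Log2 fold change of 5D over vehicle (horizontal axis) for each gene, with the estimate as a point and the 95% interval as a line. The interval of Mief2, in red, runs from -0.75 to -0.14, and those of the other 9 genes cross 0.

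Compared per length, the fission adaptor Fis1 stood far above the other genes and its fellow adaptors Mief1 and Mief2 near the bottom. Levels are given as normalized CPM per kilobase of merged exons, as mean ± SD over 2 libraries. Fis1 had 82.9 ± 4.36 with vehicle and 83.4 ± 1.56 with 5D, above 95.5% of the tested genes with vehicle. Mfn2 followed with 18.8 ± 2.04 and 19.8 ± 0.191, above the next gene in every library. Dnm1l had 14.6 ± 0.493 and 15.7 ± 0.862 and Yme1l1 13.9 ± 0.834 and 14.4 ± 0.478, and their ranges overlapped. Oma1, Mff and Opa1, with 10.0 ± 0.093, 10.2 ± 0.170 and 9.54 ± 1.59 in vehicle libraries, could not be ordered beyond their spread. At the bottom with vehicle, Mief2 with 7.03 ± 0.646 lay above Mief1 with 5.67 ± 0.497 and Mfn1 with 5.40 ± 0.598 in both libraries, and Mief1 and Mfn1 overlapped. With 5D, Mief2 had 5.06 and 5.24, below the 5.32 of Mief1 in both libraries and inside the range of Mfn1, from 4.76 to 5.59. Even Mfn1, the lowest, was above 61.2% of the tested genes. The order depends on the length used. With the longest transcript in place of merged exons, 9 of the 10 genes changed place, Mff moved from the sixth place to the second with 25.4 ± 0.425, and Mief2 moved to the last. Fis1 stayed first with 150 ± 7.88.

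**Figure D3:**
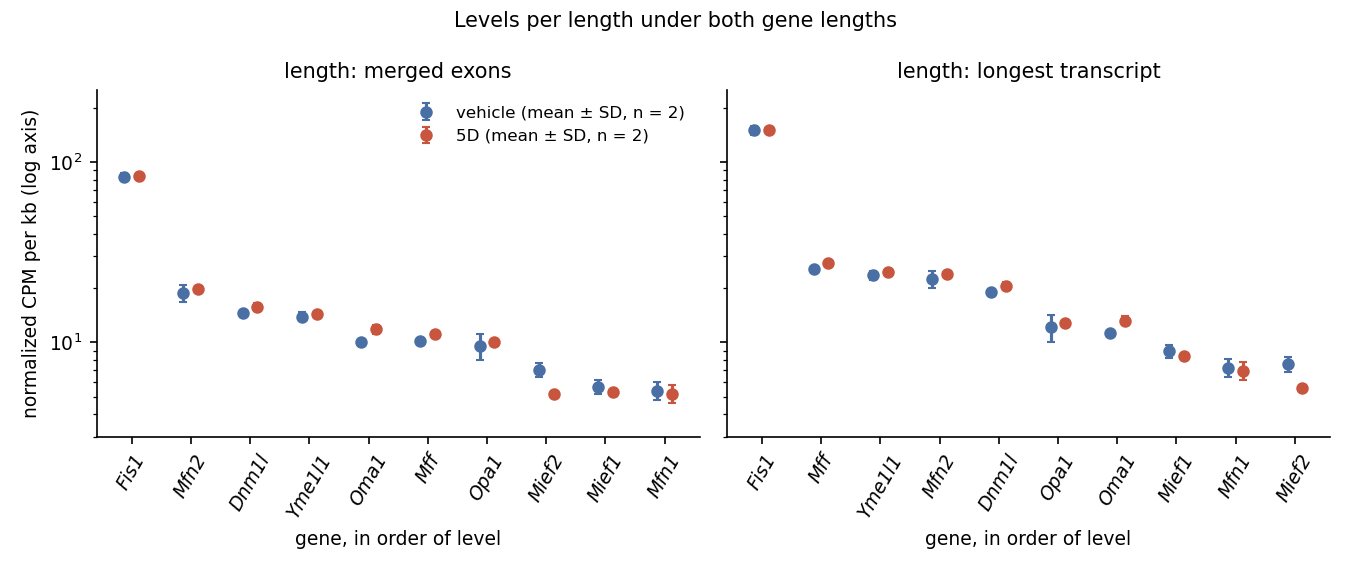
Normalized CPM per kilobase (vertical log axis) of the 10 genes in order of level, with length taken as merged exons (left) or as the longest transcript (right). Points are group means and bars the SD of 2 libraries, vehicle in blue and 5D in red. Fis1 leads in both panels and the order of the other genes differs between them.

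Within each library the ratio of the paired adaptors was also compared. The per-kilobase ratio of Mief1 to Mief2 was 0.805 and 0.810 with vehicle and 1.05 and 1.02 with 5D. The 2 libraries of a group differed by far less than the groups, and the ratio rests on the lower Mief2 values with 5D. With the longest transcript as length it was 1.18 with vehicle and 1.51 with 5D, so which paralog is higher is not settled by these data. A fixed length cancels from the shift between the groups, so the choice of length cannot change that shift. The ratio of Oma1 to Yme1l1 was 0.689 and 0.760 with vehicle and 0.872 and 0.769 with 5D, and the groups nearly touched. That of Mfn1 to Mfn2 was 0.288 and 0.287 with vehicle and 0.241 and 0.280 with 5D, so both 5D values were lower, 0.280 by little. The summed fusion GTPases stood at 2.46 and 2.16 times Dnm1l with vehicle and at 2.13 and 2.35 times with 5D, and the groups overlapped. The summed fission adaptors, most of them Fis1, stood at 6.93 and 7.61 times Dnm1l with vehicle and at 6.37 and 7.02 times with 5D, which also overlapped. No test was made of these ratios, because the smallest exact permutation p is again 0.333.

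**Figure D4:**
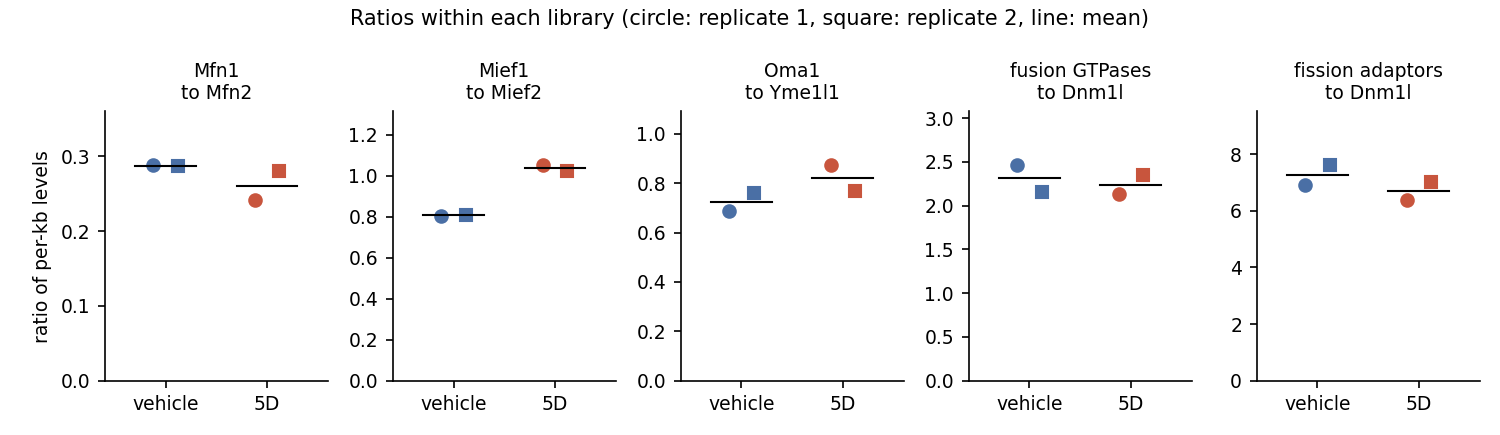
Ratios of per-kilobase levels within each library (vertical axes, from 0), vehicle in blue and 5D in red, with a black line at each group mean. Mief1 to Mief2 lies at 0.805 and 0.810 with vehicle and at 1.05 and 1.02 with 5D, and the summed groups relative to Dnm1l overlap.

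Promoter sequence was looked at for what the genes share beyond their roles. RefSeq windows on GRCm38.p6 from 250 bases before to 50 after a start site were found for all 10 genes, 15 windows in all. The windows of Mff overlap each other, as do windows of Mfn2. Of the 15, 14 had a higher GC content than 52.7%, the median over all windows, those of genes not tested included. The GC content was not compared with that of tested genes alone. The core of the ETS factor motif, CCGGAAG, which GABPA (NRF2) binds in many genes of mitochondrial proteins, was searched on both strands and found for 5 of the 10 genes, namely Dnm1l, Fis1, Mfn1, Mief1 and Yme1l1. It occurs for 19.9% of the 10861 tested genes that have a window and for 9.93% of all genes with a window. The core of the motif of NRF1, a regulator of genes for respiration, GCGCATG, was found for Opa1. Among genes with a window it occurs for 7.69% of those tested and 4.41% of all. The letters TATAAA were found in none of the 15 windows and for 8.9% of the tested genes that have a window. Neither ETS nor NRF1 core is in the windows of Mief2, Oma1, Mfn2 and Mff. A link between the cores and the log2 fold changes was not tested. A match is a description of the letters and not of binding. The 150 bases before the start site are shown for Mief2, which had the widest difference, for Fis1, which had the highest level, and for Opa1, with the motif letters in capitals. In Fis1 the capitals are the ETS core at position -18 from the start site. In Opa1 they are overlapping NRF1 cores at -59 and -53, with another on the opposite strand at -56. All 3 genes lie on the plus strand, and the stretches are chr11:60728248-60728397, chr5:136953125-136953274 and chr16:29579184-29579333.
Mief2: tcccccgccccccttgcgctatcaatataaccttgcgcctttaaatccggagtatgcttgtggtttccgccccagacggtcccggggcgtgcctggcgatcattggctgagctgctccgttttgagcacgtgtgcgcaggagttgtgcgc
Fis1: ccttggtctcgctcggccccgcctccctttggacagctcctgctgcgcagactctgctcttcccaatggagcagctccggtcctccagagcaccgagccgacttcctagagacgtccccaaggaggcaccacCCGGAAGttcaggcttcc
Opa1: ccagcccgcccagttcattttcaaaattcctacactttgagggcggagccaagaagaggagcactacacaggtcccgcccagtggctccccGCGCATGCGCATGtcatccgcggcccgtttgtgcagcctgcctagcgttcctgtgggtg

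Genes that act around the fusion and fission machinery also gave no call. In 11 lists, 146 genes other than the 10 were tested, and 0 passed an adjusted p-value of 0.05. At an unadjusted p-value under 0.05, 3 were higher and 4 lower with edgeR, no larger a share than the 3.5% and 3.84% of all genes tested. The median log2 fold change of the 146 genes was -0.003. Helpers of fusion and of OPA1 processing, such as prohibitins and m-AAA protease subunits, had 12 genes tested, with 0 at an unadjusted p-value under 0.05 and log2 fold changes from -0.17 to 0.15. With 7.34% of all genes below that p-value, a count of 0 in a list of this size does not set the list apart. Among the 12 tested fission helpers, such as Inf2, Mul1 and Mtfr1, and the 14 kinases, phosphatases and anchors that act on DRP1, calcineurin subunits included, 0 genes were below that p-value in either list. The same held for the 12 genes of the MICOS and SAM complexes, which shape the inner membrane and build the outer one. It also held for 10 genes of mitochondrial motility and for 10 genes around the OMA1-DELE1 stress pathway. Log2 fold changes ran from -0.57 to 0.13 in the fission helpers and from -0.24 to 0.12 in the genes that act on DRP1. They ran from -0.53 to 0.16 for MICOS and SAM, -0.59 to 0.20 for motility and -0.45 to 0.18 for the stress pathway.

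The 7 genes at an unadjusted p-value under 0.05 came from 5 of the lists. Of 19 tested mitophagy genes, Bnip3, a mitophagy receptor, had 77.2 and 75.3 normalized CPM with vehicle and 63.7 and 67.3 with 5D (log2 fold change -0.22, adjusted p = 0.556 from edgeR). Both 5D libraries were lower, and Bnip3 has near-identical stretches in 5 genes. Usp15, a deubiquitinase, and Tbk1, a kinase of autophagy receptors, had log2 fold changes of 0.19 and 0.15 (adjusted p = 0.579 and 0.645 from edgeR). Of 10 genes for cardiolipin, the lipid that OPA1 and DRP1 bind, Pgs1, an enzyme of its synthesis, had 160 and 165 normalized CPM with vehicle and 145 and 146 with 5D (log2 fold change -0.16, adjusted p = 0.566 from edgeR). Of 27 genes of protein import, Tomm20, a receptor of the outer membrane, had 135 and 142 with vehicle and 120 and 128 with 5D (log2 fold change -0.15, adjusted p = 0.624 from edgeR), with 5 near-identical genes. Of 13 tested regulators of mitochondrial biogenesis, Yy1 had a log2 fold change of -0.24 (adjusted p = 0.645 from edgeR). Of 7 genes of peroxisome division, a process that shares DRP1, FIS1 and MFF with mitochondria, Pex11g had 77 and 97 counts with vehicle and 179 and 158 with 5D. Its log2 fold change was 0.58 (95% interval 0.02 to 1.13, adjusted p = 0.659 from edgeR). Pex11g shares 1396 nt of exon with Gm44775 on the opposite strand, which had 27.0 and 10.8 counts with vehicle and 31.3 and 12.3 with 5D, so the split of reads between them is uncertain. The groups did not overlap in these 7 genes, which were chosen by their p-values, nor in 37.6% of all genes tested.

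**Figure D5:**
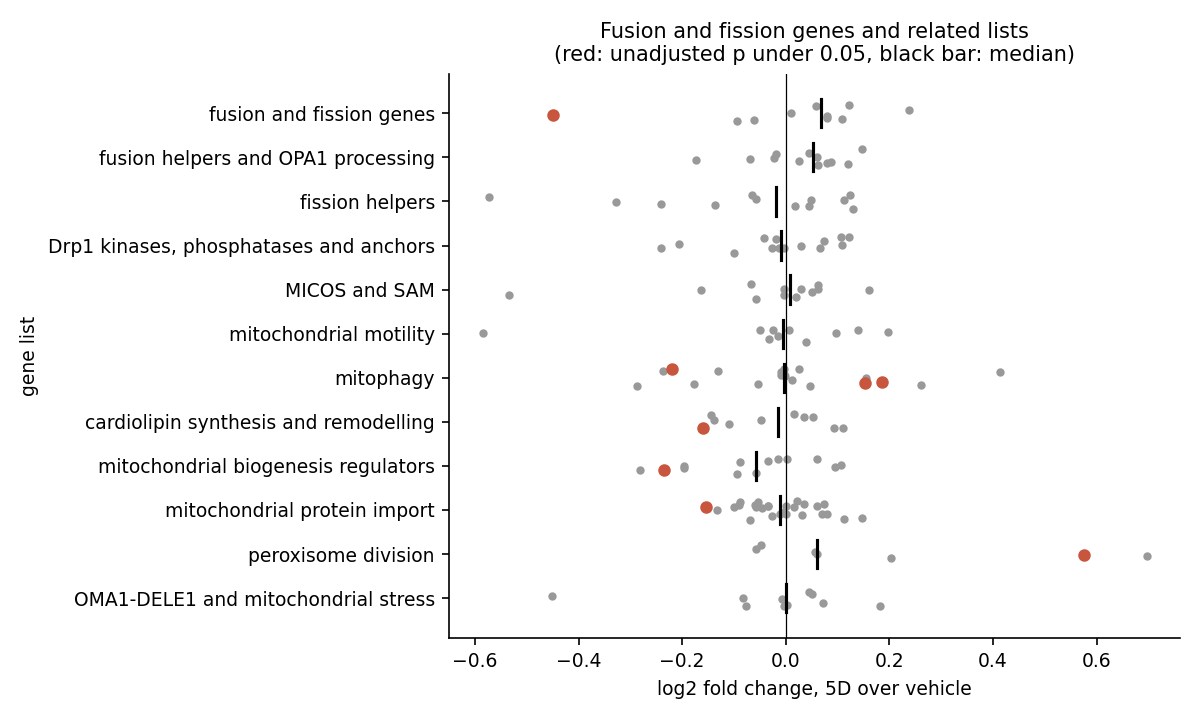
Log2 fold change of 5D over vehicle (horizontal axis) for the tested genes of each list, with the 10 fusion and fission genes on top. Each point is a gene, red where the unadjusted p-value is under 0.05, and black bars are list medians, which lie between -0.058 and 0.069.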

How the data were processed

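RNA of 4 libraries of sorted mouse lung ILC2s was compared, 2 with vehicle and 2 with 5D. According to the study's methods and the labels, the authors aligned reads with STAR (2.6.1 in the submitters' processing notes) to mm10 and quantified them on GENCODE M21 in Partek Genomics Suite. The deposited table holds estimated counts per gene before normalization, of which 51.7% to 54.8% were whole within 1e-06 in a library, and they were rounded here. Whether counting used strand is not given in the sources used here. Of 22554 genes, 21 names had been turned into dates, and 19 were recovered by position.

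Counts were scaled by the upper quartile. The filter kept 17650 genes, those whose normalized counts averaged 1 or more and summed to 10 or more. The test was edgeR's quasi-likelihood test with no covariate, two-sided, and p-values were adjusted by Benjamini-Hochberg over the 17650 genes (R 4.3.3, edgeR 4.0.16, limma 3.58.1, DESeq2 1.42.0). Each standard error is the size of the log2 difference divided by the root of its F statistic. The code was tested on simulated data. Coordinates, exon lengths and overlaps are from GENCODE M21 on mm10, near-identical stretches from BLAST 2.17.0 and promoters from RefSeq on GRCm38.p6. Python 3.11.15 with matplotlib 3.10.9 made the figures.

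The genes and lists were chosen with earlier results of these data known. Besides the 10 genes, the genes named are those of each list that passed the adjusted threshold of 0.05, plus up to 2 higher and 2 lower genes per list, taken by smallest p among those under 0.05 unadjusted. Of the listed genes, Gdap1 and Snph were not analysed here, and Ppargc1a did not pass the filter. Another listed gene is not reported here. The chi-square over degrees of freedom between libraries of a group was 6.71 with vehicle and 7.56 with 5D over 11184 genes, which is more than counting error, so they are not 1 library deposited in duplicate. This does not show that they came from separate mice or cultures.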

Additional observations from a re-analysis of the deposited data

How the results depend on the processing

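No alternative put any of the 10 genes past an adjusted p-value of 0.05, and the count stayed 0 under TMM, DESeq2's size factors, the upper quartile after the filter, limma-voom, no filter, filterByExpr, DESeq2's Wald test, leaving out genes of the mitochondrial genome, the replicate number as a block and leaving out each library. When a library is left out, its group has 1 library that is assumed to vary like the other group. Without vehicle replicate 1 the log2 fold change was 0.19 for Mfn2, 0.26 for Opa1 and -0.35 for Mief2. Signs turned for Fis1 with the upper quartile after the filter (-0.0036). When a library was left out, log2 fold changes ran from -0.19 to 0.05 for Mfn1, -0.03 to 0.19 for Mfn2, -0.08 to 0.26 for Opa1, -0.05 to 0.06 for Fis1 and -0.0039 to 0.12 for Yme1l1. The cause was not tested.

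Over all genes, 17 passed an adjusted p-value of 0.05. The count was 58 with DESeq2's Wald test, 46 without a filter, 32 with limma-voom, 26 with filterByExpr and 15 to 180 without a library, the highest without vehicle replicate 1, followed by 79 without vehicle replicate 2. At an unadjusted p-value DESeq2 had 362 higher and 416 lower genes, and leaving out a library gave 380 to 1034 higher ones. Of the related genes, 4 passed it with DESeq2 and 4 to 14 without a library, the highest again without vehicle replicate 1, where 7 did in the report. Over all genes, too, higher and lower genes at an unadjusted p-value were each most numerous without vehicle replicate 1. The count of related genes in that setting therefore does not set them apart from all genes. With the replicate number as a block, 41 genes passed an adjusted p-value. Same-numbered libraries did not deviate together (correlation 0.024), so the numbers were not taken to pair them, and the block changed no call on the 10 genes.

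With the longest transcript as length, 9 genes changed place in the order of levels, and ratios with vehicle and 5D became 0.322 and 0.292 for Mfn1 to Mfn2, 1.18 and 1.51 for Mief1 to Mief2, 0.477 and 0.540 for Oma1 to Yme1l1, and 10.0 and 9.35 for the fission adaptors to Dnm1l. TMM and the library total left the order as it was. For genes with Mief2's counts, depth adds about 5% of counting error to a library's value.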
